A study of Arabidopsis thaliana with 8 samples.

Results

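The change of miRNA profiles over time without hormone was measured in mock-treated *A. thaliana* seedlings, in which the 180 min arrays were set against the 30 min arrays. These 4 arrays, 2 at each time, are those titled DMSO with the time of treatment and were chosen by that label from a series of 8; the other 4 arrays carry RNA of seedlings given 24-epibrassinolide (EBR), a brassinosteroid hormone, at 10 nM for the same times, again with 2 arrays at each time. All seedlings were of the wild-type ecotype Col-0 and were grown in flasks of liquid half-strength MS medium with 1.5% sucrose for 7 days at 22 °C under continuous light, with shaking at 50 rpm. The mock seedlings then received medium with DMSO, the solvent of the hormone, and EBR was absent from both mock groups. Total RNA came from whole seedlings, so that fewer cells that make a miRNA and less of that miRNA per cell cannot be told apart. The series design speaks of 2 independent experiments at each time, and the titles number the arrays 1 and 2. Should the 2 arrays of a group not be those experiments, the p-values measure only the spread between arrays. The arrays include no seedlings at 0 min and none in unchanged medium, so that the effects of time, solvent and handling cannot be told apart.

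Plant miRNAs are short RNAs cut from hairpin precursors, which guide an ARGONAUTE protein to nearly complementary sites in mRNAs and mostly lead to cleavage of these mRNAs. Many of the conserved families act on transcription factors that set developmental phases and organ identity. Other families follow the nutrient status of the plant: miR395 rises when sulfate is scarce, miR399 and miR827 when phosphate is scarce, and miR397, miR398, miR408 and miR857 when copper is scarce. Members of a family have the same or nearly the same mature sequence, which array probes separate only in part, so values of close relatives are not fully independent of each other.

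Of the deposited miRNAs, 43 lay above the lowest value of 0.01 on all 8 arrays and were tested. The value of each of these is a ratio to the median of that miRNA over the 8 arrays, so it shows change between arrays and no order of abundance between miRNAs. A further 114 miRNAs were at 0.01 on every array, and 4 were at 0.01 on some arrays only. The array values carry no sign of tissue identity beyond the miRNAs themselves, and no markers of seedling tissues could be checked. All 43 tested names were found among 326 miRNA loci of the RefSeq annotation. A locus printed with a miRNA comes from this match by name. The array values do not show which locus of a family the RNA came from. Between duplicate arrays the median absolute log2 difference was 0.09 at 180 min and 0.15 at 30 min in mock. The largest was 0.70 at 180 min, for miR398b, and 0.38 at 30 min, for miR169a.

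Most of the 43 miRNAs had higher ratios at 180 min, so that whole arrays were shifted. In mock seedlings the array median stood at 1.07 and 1.08 at 180 min, against 0.818 and 0.931 at 30 min. Both 180 min arrays lay above both 30 min arrays, and the 30 min arrays were farther from each other than the 180 min arrays. At 180 min 36 and 32 of the 43 miRNAs had a ratio above 1, against 3 and 11 at 30 min. The difference between the array medians was 0.30 on the log2 scale, a 1.23-fold difference (exact permutation, two-sided, p = 0.333, which no split of 4 arrays into 2 and 2 can go below). In EBR-treated seedlings the same difference was 0.13. Because neither the labels nor the study's methods describe how the arrays were scaled to each other, a change of most miRNAs in the seedlings and a difference in array scaling cannot be told apart. Each result is therefore given on the deposited scale and again after every array was centred on its own median, which removes whatever the 43 miRNAs had in common.

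**Figure D1:**
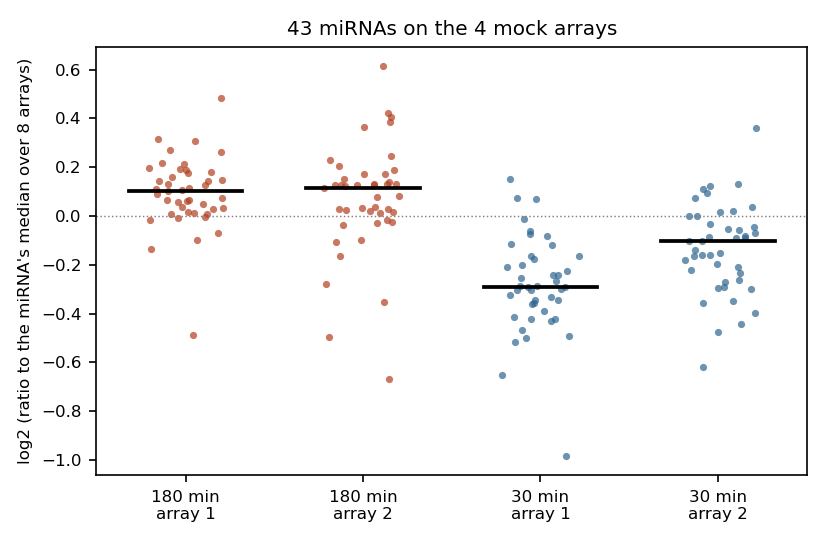
Log2 ratio of each of the 43 tested miRNAs (points) on the 4 mock arrays, with the 180 min arrays on the left; the black bar is the array median. The medians of the 180 min arrays lie above 0 and those of the 30 min arrays below 0, and on every array single miRNAs lie far from the median.

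On the deposited scale 25 of the 43 miRNAs (58.1%) rose between 30 and 180 min in mock seedlings and 3 (6.98%) fell, from a linear model fitted to all 8 arrays with limma and a Benjamini-Hochberg adjusted threshold of 0.05; together these 28 calls were 65.1% of the tested miRNAs. Without adjustment 30 (69.8%) passed 0.05, and 38 (88.4%) had a log2 fold change above 0. The rises ran from 1.21-fold for miR822 to 1.96-fold for miR169d. The 3 that fell were miR395a, miR398b and miR397a. In this fit all miRNAs shared 1 spread, which was taken as known without error, and each log2 fold change had a standard error of 0.12. The small p-values that this fit gave on the deposited scale rest on that assumption. This holds also for the EBR change and for the difference between mock and EBR. After centring, 7 miRNAs (16.3%) rose relative to the array and 8 (18.6%) fell. On that scale 20 (46.5%) passed 0.05 without adjustment. A log2 fold change above 0 was seen for 21 (48.8%), a nearly even split that centring on the array median itself brings about. The calls on both scales went in the same direction for 10 miRNAs: miR169d, miR161.2, miR400, miR169h, miR170, miR824 and miR173 rose and miR397a, miR398b and miR395a fell. A further 18 rose on the deposited scale only, and 11 of the 25 that rose had a centred log2 fold change within 0.1 of 0. The 5 that fell after centring only were miR172b*, miR399b, miR827, miR164a and miR823. No miRNA was called in opposite directions, and 10 were called on neither scale. Quantile normalization, which gives all arrays the same distribution, left 10 calls, 5 higher and 5 lower. When the mock arrays were tested alone with each miRNA's own spread, 0 calls passed adjustment on the deposited scale and 14 passed 0.05 without it. In the fit to all 8 arrays each miRNA's own spread left 22 calls on the deposited scale, 19 of them shared with the 28. It left 11 calls after centring.

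When single arrays were left out in turn, 17 of the 28 calls on the deposited scale and 9 of the 15 centred calls were kept in all 8 cases. The 7 that were kept on both scales were miR161.2, miR169d, miR169h, miR170, miR395a, miR397a and miR400. Without mock replicate 1 at 30 min, the array with the lowest median, the rises of miR156a, miR160a, miR161.1, miR166a, miR167a, miR168a, miR171b, miR403 and miR822 were lost, with log2 fold changes of 0.16 to 0.28. Without mock replicate 1 at 180 min those of miR156h, miR160a, miR166a, miR167a, miR168a, miR171b, miR403 and miR822 were lost, with 0.19 to 0.32, and without replicate 2 at 180 min those of miR156a, miR160a, miR161.1, miR167a, miR168a and miR822, with 0.23 to 0.30. The adjusted p of these lost calls lay between 0.0586 and 0.276 (limma). Leaving out mock replicate 2 at 30 min ended the call of miR171b, and leaving out either EBR30 array those of miR168a, miR171b and miR822, at adjusted p of 0.0508 to 0.0597. Leaving out an array of mock lowers the precision, and the lone array of that group is then assumed to vary like the other arrays.

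**Figure D2:**
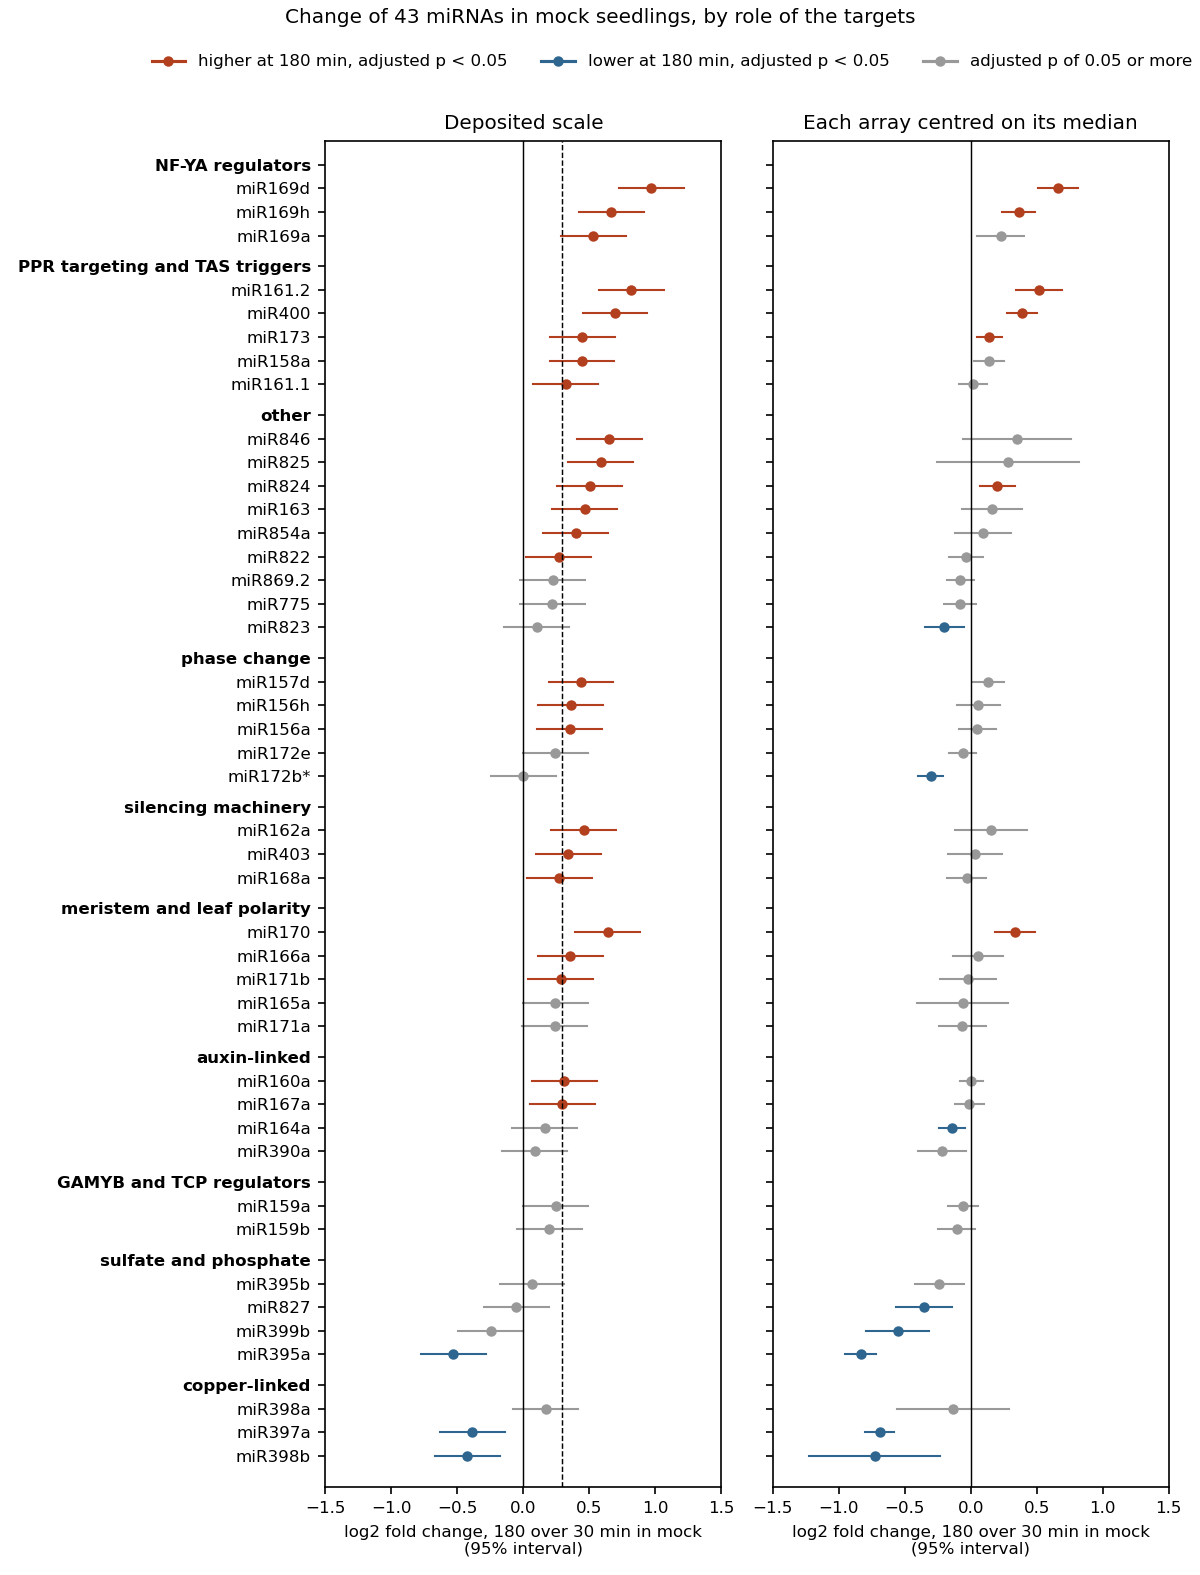
Log2 fold change of the 43 miRNAs at 180 over 30 min in mock seedlings, with the 95% interval from limma, on the deposited scale (left; dashed line, median of all 43) and after centring of each array (right), grouped by the role of the targets. The NF-YA regulators and miR161.2 and miR400 lie to the right on both panels, and miR395a, miR398b, miR397a, miR399b and miR827 lie farthest to the left on both.

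The largest rise was that of miR169d, and the other members of the miR169 family rose with it. These miRNAs act on mRNAs of NF-YA subunits, the sequence-specific part of the heterotrimeric NF-Y transcription factors. All 3 tested members rose on the deposited scale, with a median log2 fold change of 0.67, against 0.29 over the 43 tested miRNAs, and 2 of the 3 did so after centring, where 58.1% and 16.3% of the 43 were called higher. A further 2 family entries, miR169b and miR169g*, were at 0.01 on all arrays. The ratio of miR169d (locus AT1G53683) was 1.14 and 1.11 at 180 min, against 0.506 and 0.652 at 30 min. Both 30 min arrays were low, and no other tested miRNA was lower than miR169d on either of them. The means were 1.12 ± 0.0197 at 180 min and 0.579 ± 0.103 at 30 min (SD, n = 2 arrays each). The log2 fold change was 0.97 (limma, adjusted p = 2.91e-11), and 0.66 after centring (adjusted p = 0.000391). The p-value on the deposited scale depended on the spread. With a trend and a robust prior the adjusted p of miR169d was 0.000108 (limma). With its own spread it was 0.0174 in the fit to 8 arrays (linear model). On the mock arrays alone with its own spread it was 0.138 (linear model), which did not pass. For miR169h (AT1G19371) the ratio was 1.20 and 1.13 at 180 min, against 0.706 and 0.759 at 30 min. The groups were well apart, with log2 fold changes of 0.67 (limma, adjusted p = 2.93e-06) and 0.36 after centring (adjusted p = 0.00200). That of miR169a (AT3G13405) was 1.04 and 1.06 at 180 min, against 0.636 and 0.829 at 30 min. Its 30 min arrays were the most distant duplicates of that group, and its log2 fold change was 0.53 (limma, adjusted p = 0.000168), with 0.23 after centring (adjusted p = 0.0511), just above the threshold.

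MiRNAs directed at mRNAs of pentatricopeptide repeat proteins, which serve RNA metabolism in chloroplasts and mitochondria, and triggers of trans-acting siRNAs made up the second group that rose. Its 5 members all rose on the deposited scale, with a median log2 fold change of 0.45 against 0.29 over all tested, and 3 did so after centring, where 58.1% and 16.3% of the 43 were called higher. MIR161 (AT1G48267) is a single locus whose hairpin gives the overlapping products miR161.1 and miR161.2. MiR161.2 stood at 1.40 and 1.30 at 180 min, against 0.750 and 0.782 at 30 min. With little spread within either group, the means of 1.35 ± 0.0675 and 0.766 ± 0.0226 (SD, n = 2 arrays each, at 180 and 30 min) gave a log2 fold change of 0.82 (limma, adjusted p = 1.22e-08), and 0.52 after centring (adjusted p = 0.00194). MiR161.1 stood at 1.05 and 1.10 at 180 min, against 0.816 and 0.900 at 30 min, with a log2 fold change of 0.32 (limma, adjusted p = 0.0203) that was 0.02 after centring. The call of miR161.1 was lost without mock replicate 1 at 30 min (log2 fold change 0.25) and without replicate 2 at 180 min (0.29).

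MiR400 (AT1G32582), also directed at pentatricopeptide repeat mRNAs, had ratios of 1.24 and 1.29 at 180 min, against 0.746 and 0.818 at 30 min. The rise was larger than the distance between duplicates in either group, with a log2 fold change of 0.69 (limma, adjusted p = 1.38e-06), and 0.39 after centring (adjusted p = 0.00137). MiR173 (AT3G23125), which starts the production of trans-acting siRNAs from the TAS1 and TAS2 transcripts, was at 1.13 and 1.15 at 180 min, against 0.794 and 0.882 at 30 min. Its log2 fold change was 0.45 (limma, adjusted p = 0.00146) and 0.14 after centring (adjusted p = 0.0343). The centred call was lost whichever of the 8 arrays was left out, with an adjusted p of up to 0.129. MiR158a had a log2 fold change of 0.44 (limma, adjusted p = 0.00146), and 0.14 after centring (adjusted p = 0.0581).

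Among the miRNAs of meristem and leaf polarity, miR170 alone rose on both scales. MiR170 and miR171 act on GRAS-domain transcription factors of the HAM group, which keep meristems undifferentiated, and miR165 and miR166 on HD-ZIP III factors, which set the upper side of leaves. The ratio of miR170 (AT5G66045) was 1.14 and 1.09 at 180 min, against 0.699 and 0.737 at 30 min. Duplicates lay close together, and the log2 fold change was 0.64 (limma, adjusted p = 5.66e-06), with 0.33 after centring (adjusted p = 0.00758). All 5 tested members of the group had both 180 min arrays above both 30 min arrays, an order seen for 33 of the 43 tested miRNAs (76.7%). Of the 5, 3 rose on the deposited scale, close to the 58.1% over all tested, and the median of the group was 0.28 against 0.29 over all tested; miR166a (log2 fold change 0.36) and miR171b (0.28) were the others past the threshold. After centring miR170 alone passed, and miR165a, miR166a, miR171a and miR171b lay between -0.07 and 0.05. The rise of miR171b rested on a thin margin (limma, adjusted p = 0.0412), which was lost when mock replicate 1 at 30 min, either EBR30 array, mock replicate 1 at 180 min or mock replicate 2 at 30 min was left out, with log2 fold changes of 0.19 to 0.28. MiR396a and miR396b, directed at GRF growth regulators, were at 0.01 on all arrays.

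**Figure D3:**
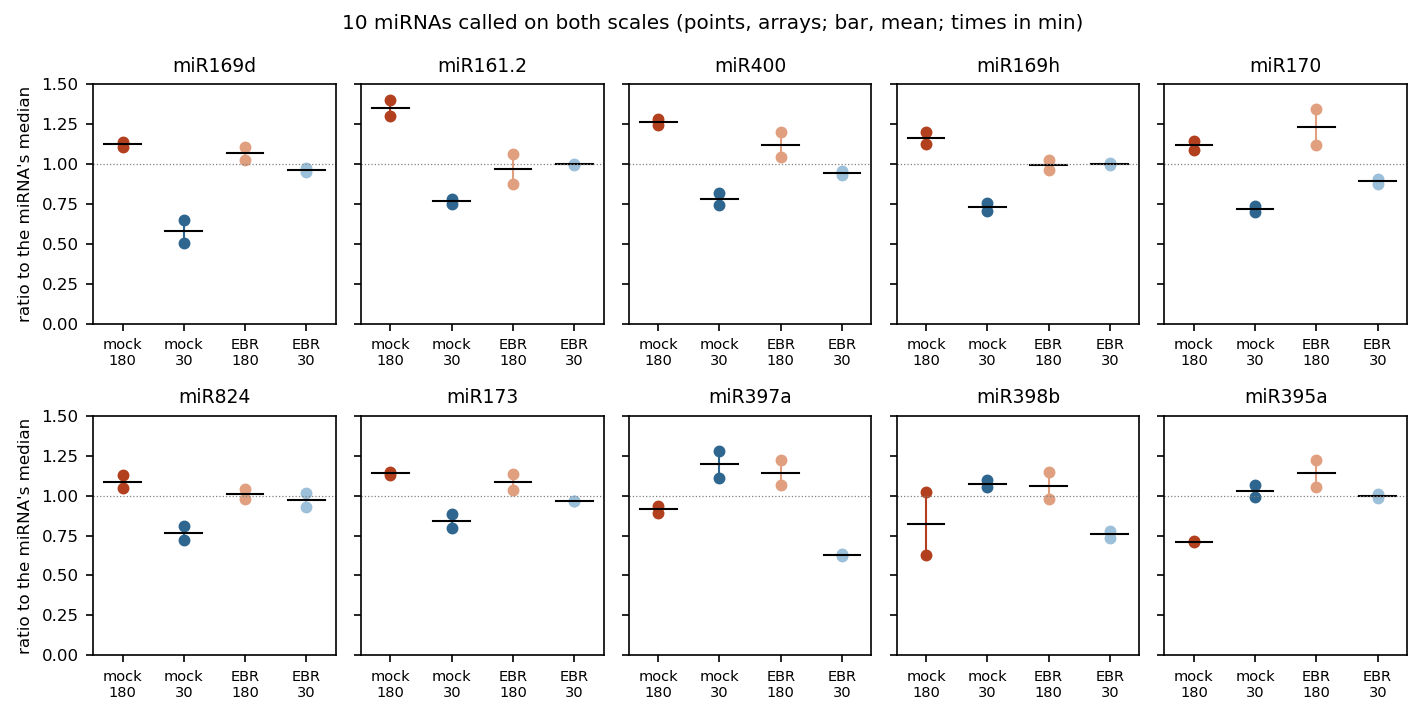
Ratio of the 10 miRNAs called in the same direction on both scales, on the 2 arrays of each group (points) with the group mean (bar); mock at 180 and 30 min on the left of each panel, EBR-treated at 180 and 30 min on the right. The 7 miRNAs that rose are lowest in mock at 30 min, as are most of the 43 tested. MiR395a is lowest in mock at 180 min, at 0.713 and 0.710.

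Of the miRNAs outside these role groups, 6 of 9 rose on the deposited scale and 1 did so after centring, with medians of 0.40 and 0.09. Over the 43 tested these shares were 58.1% and 16.3% and the medians 0.29 and -0.01, so the group lay near the background. MiR824 (AT4G24415), which acts on the MADS-box gene AGL16 in stomatal development, was at 1.05 and 1.13 at 180 min, against 0.723 and 0.813 at 30 min. It passed on both scales, with log2 fold changes of 0.50 (limma, adjusted p = 0.000340) and 0.20 (adjusted p = 0.0349); the centred call was lost without either mock array at 30 min, mock replicate 2 at 180 min or either EBR180 array, at 0.15 to 0.21. MiR846 (AT1G61226) was at 1.01 and 1.53 at 180 min, against 0.746 and 0.834 at 30 min. Here 1 array carried much of the rise: the log2 fold change of 0.65 (limma, adjusted p = 4.10e-06) was 0.35 without mock replicate 2 at 180 min (adjusted p = 0.0343) and 0.95 without replicate 1, and the centred value of 0.35 was not called (adjusted p = 0.171). MiR825 was at 1.13 and 1.34 at 180 min, against 0.778 and 0.866 at 30 min, a log2 fold change of 0.59 (limma, adjusted p = 3.09e-05), with 0.28 after centring (adjusted p = 0.381). MiR163, directed at mRNAs of methyltransferases, and miR854a rose by 0.46 and 0.40 on the deposited scale only. MiR822, directed at DC1-domain mRNAs, rose by 0.27 before centring, while miR775 and miR869.2, at 0.22 each, did not pass on either scale. MiR823, which acts on the DNA methyltransferase CMT3, had ratios of 1.01 and 1.10 at 180 min, against 0.943 and 1.02 at 30 min. These groups overlapped, and its centred log2 fold change was -0.20 (limma, adjusted p = 0.0447), a call that was kept only when mock replicate 2 at 180 min was left out. With the other 7 arrays left out in turn it was -0.24 to -0.15.

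The regulators of the silencing machinery rose before centring and not after it. MiR162a acts on the mRNA of DICER-LIKE1, miR168a on that of ARGONAUTE1 and miR403 on that of ARGONAUTE2. All 3 rose on the deposited scale, by 0.46, 0.27 and 0.34 on the log2 scale, and 0 of 3 passed after centring, against 58.1% and 16.3% called higher over the 43 tested. Their centred log2 fold changes were 0.15, -0.03 and 0.04, so the direction of miR168a turned with the scaling. The ratio of miR162a was 1.09 and 0.988 at 180 min, against 0.798 and 0.719 at 30 min. MiR168a was at 1.02 and 1.09 at 180 min, against 0.821 and 0.931 at 30 min. MiR403 was at 1.16 and 1.08 at 180 min, against 0.818 and 0.960 at 30 min. The groups did not overlap for any of the 3 before centring, and they overlapped for each of them after it. Over the 43 tested, both 180 min arrays lay above both 30 min arrays for 76.7% before centring and 27.9% after it. They lay below for 11.6% and 34.9%.

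The phase-change miRNAs miR156 and miR157, which hold back SPL transcription factors and with them the adult phase, were higher at 180 min on the deposited scale. The miR172 entries, which act against AP2-like factors later in development, did not pass there. Of the 5 tested entries of the group 3 rose, close to the 58.1% over all tested, and whether the families differed was not tested. The log2 fold changes were 0.44 for miR157d, 0.36 for miR156h and 0.35 for miR156a (limma, adjusted p = 0.00168, 0.0101 and 0.0108). After centring they were 0.13, 0.06 and 0.05, and none of these passed. For miR172e they were 0.24 (limma, adjusted p = 0.0717) and -0.06, and each deposited value had a standard error of 0.12. MiR156a had ratios of 0.994 and 1.09 at 180 min, against 0.742 and 0.896 at 30 min. That of miR157d was 1.10 and 1.19 at 180 min, against 0.787 and 0.907 at 30 min. The calls were lost without mock replicate 1 at 30 min or replicate 2 at 180 min (miR156a) and without mock replicate 1 at 180 min (miR156h), with log2 fold changes of 0.22 to 0.29. In miR172b*, the strand opposite to mature miR172b, the ratio was 1.01 and 1.03 at 180 min, against 0.951 and 1.09 at 30 min. These values overlapped and the log2 fold change was 0.00, but relative to the other miRNAs of each array both 180 min values lay below both 30 min values: the centred log2 fold change was -0.30 (limma, adjusted p = 0.00151), and it stayed between -0.31 and -0.30 with each array left out.

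Of the auxin-linked miRNAs 2 of 4 rose on the deposited scale, and of the miR159 members 0 of 2, against 58.1% over the 43 tested. MiR160a and miR167a act on auxin response factors, miR164a on NAC factors such as CUC2, and miR390a on the TAS3 transcript that gives siRNAs against further auxin response factors. Of these 4, miR160a (log2 fold change 0.31; limma, adjusted p = 0.0251) and miR167a (0.29; adjusted p = 0.0335) rose on the deposited scale, and after centring these were at 0.01 and -0.01. MiR164a had ratios of 1.01 and 0.981 at 180 min, against 0.821 and 0.963 at 30 min. Its deposited log2 fold change was 0.16 (limma, adjusted p = 0.224), and its centred one was -0.14 (adjusted p = 0.0392), a direction that follows the scaling and a call that was lost whichever array was left out (-0.17 to -0.12). The log2 fold change of miR390a was 0.08 as deposited and -0.22 after centring, and it passed on neither scale. MiR159a and miR159b, the regulators of GAMYB-like factors, had log2 fold changes of 0.25 and 0.20 on the deposited scale and of -0.06 and -0.11 after centring, and passed on neither. MiR393a, against the TIR1 auxin receptors, miR319a and miR319c, against TCP factors, and miR159c, miR164c, miR167c and miR167d were at 0.01 on all arrays.

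Among the sulfate and phosphate miRNAs miR395a fell on both scales, and miR399b and miR827 fell after centring. The median of the group's log2 fold changes was -0.15 on the deposited scale, against 0.29 over the 43 tested, and -0.46 after centring, against -0.01; 1 of the 4 fell on the first scale and 3 on the second, against 6.98% and 18.6% of the 43. MiR395a (AT1G26973), which acts on ATP sulfurylases and a sulfate transporter, had ratios of 0.713 and 0.710 at 180 min, against 0.991 and 1.07 at 30 min. The 180 min arrays were nearly equal and below both 30 min arrays, with means of 0.711 ± 0.00271 at 180 min and 1.03 ± 0.0547 at 30 min (SD, n = 2 arrays each). MiR395a fell by 0.53 on the log2 scale (limma, adjusted p = 0.000168) and by 0.84 after centring (adjusted p = 4.77e-05), and it had the lowest log2 fold change of the 43 on both scales. With any 1 array left out it fell by 0.48 to 0.59 as deposited.

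MiR395b (AT1G26975), from the neighbouring locus in the annotation, was at 0.990 and 1.01 at 180 min, against 0.846 and 1.08 at 30 min. These groups overlapped, and the log2 fold changes of 0.07 and, after centring, -0.24 (limma, adjusted p = 0.0511) did not pass. MiR399b (AT1G63005), which acts on the mRNA of the ubiquitin-conjugating enzyme PHO2, was at 0.911 and 0.783 at 180 min, against 0.958 and 1.05 at 30 min. The groups did not overlap. Its log2 fold change was -0.25 (limma, adjusted p = 0.0702), and after centring miR399b fell by 0.55 (adjusted p = 0.00595). MiR827, which acts on the ubiquitin ligase NLA, was at 1.02 and 0.975 at 180 min, against 1.05 and 1.03 at 30 min. On the deposited scale the difference was -0.05, and after centring miR827 fell by 0.36 (limma, adjusted p = 0.0251), a call that was lost without mock replicate 1 at 30 min or mock replicate 2 at 180 min (-0.25 and -0.32). MiR399a, miR399d, miR399e and miR399f were at 0.01 on all arrays.

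In the copper-linked group the median log2 fold change was -0.39 on the deposited scale and -0.69 after centring, and 2 of the 3 tested members fell on both, against 6.98% and 18.6% of the 43. These miRNAs lower mRNAs of copper proteins, laccases in the case of miR397a and the superoxide dismutases CSD1 and CSD2 in the case of miR398. MiR397a (AT4G05105) had ratios of 0.935 and 0.892 at 180 min, against 1.11 and 1.28 at 30 min. The means were 0.913 ± 0.0307 at 180 min and 1.20 ± 0.121 at 30 min (SD, n = 2 arrays each). MiR397a fell by 0.39 on the log2 scale (limma, adjusted p = 0.00525) and by 0.69 after centring (adjusted p = 6.44e-05), and the deposited call was kept with every array left out, with an adjusted p of at most 0.0485. MiR398b (AT5G14545) was at 1.02 and 0.629 at 180 min, against 1.05 and 1.10 at 30 min. Replicate 2 at 180 min was far below the other arrays: the deposited log2 fold change of -0.42 (limma, adjusted p = 0.00226) was -0.07 without that array (adjusted p = 0.692). After centring miR398b fell by 0.73 (adjusted p = 0.0369), a call that was lost without either mock array at 30 min or either EBR180 array, with an adjusted p of up to 0.146. The centred fall was kept without replicate 2 at 180 min, at -0.37 (adjusted p = 0.00970), and was -1.08 without replicate 1. MiR398a followed the same split of the 180 min duplicates, with 1.24 and 0.824 at 180 min, against 0.846 and 0.952 at 30 min. Its groups overlapped and it passed on neither scale.

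Of the other copper-linked miRNAs, miR857 and miR408 were at 0.01 on some arrays and were not tested. MiR857, directed at a laccase mRNA, was listed at 0.01 on both mock arrays at 180 min and at 0.632 and 0.666 on those at 30 min. With EBR it was at 0.784 and 0.01 at 180 min and at 0.01 on both arrays at 30 min. MiR408, which acts on plantacyanin and laccase mRNAs, was at 0.759 and 0.01 at 180 min, against 0.806 and 0.717 at 30 min. The mock array with the 0.01 was replicate 2, the array that was also low for miR398b and miR398a. With EBR miR408 was at 1.07 and 0.835 at 180 min and at 0.01 on both arrays at 30 min. No fold is given for miR857 or miR408, since how a value comes to 0.01 is not described, and miR397b was at 0.01 on all arrays. The other 2 of this kind were miR394a, which acts on the F-box gene LCR and was at 0.568 and 0.434 at 180 min, against 0.01 and 0.484 at 30 min, and miR843, at 0.694 and 0.705 at 180 min, against 0.645 and 0.784 at 30 min.

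Related miRNAs can be set against each other on the same array, where any scaling of that array cancels. For this the log2 ratio of one was subtracted from that of the other, in 12 pairs. The difference of miR395a minus miR395b was -0.47 and -0.51 at 180 min, against 0.23 and -0.02 at 30 min. That of miR398b minus miR398a was -0.28 and -0.39 at 180 min, against 0.32 and 0.20 at 30 min. In both pairs the 180 min arrays lay below the 30 min arrays, by 0.60 and 0.59 on average, and for miR398 the shared low value of replicate 2 largely cancelled. MiR161.2 minus miR161.1 was 0.42 and 0.25 at 180 min, against -0.12 and -0.20 at 30 min, a difference of 0.50. MiR169d minus miR169a was 0.13 and 0.07 at 180 min, against -0.33 and -0.35 at 30 min, a difference of 0.44. For miR170 minus miR171a the values were 0.05 and 0.09 at 180 min, against -0.25 and -0.41 at 30 min, a difference of 0.40.

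The groups also did not overlap for miR169d minus miR169h (difference 0.30), miR172e minus miR172b* (0.24) and miR166a minus miR165a (0.11). They overlapped for miR169h minus miR169a, miR156a minus miR156h, miR159a minus miR159b and miR171a minus miR171b. Each pair without overlap had an exact permutation p of 0.333 (two-sided), the lowest possible value here, so no pair can pass 0.05 in this test. The pairs are given as a description, and which miRNA of a pair moved cannot be read from them. They were chosen with earlier results of these data known. How often other pairs of the tested miRNAs lie apart was not counted.

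**Figure D4:**
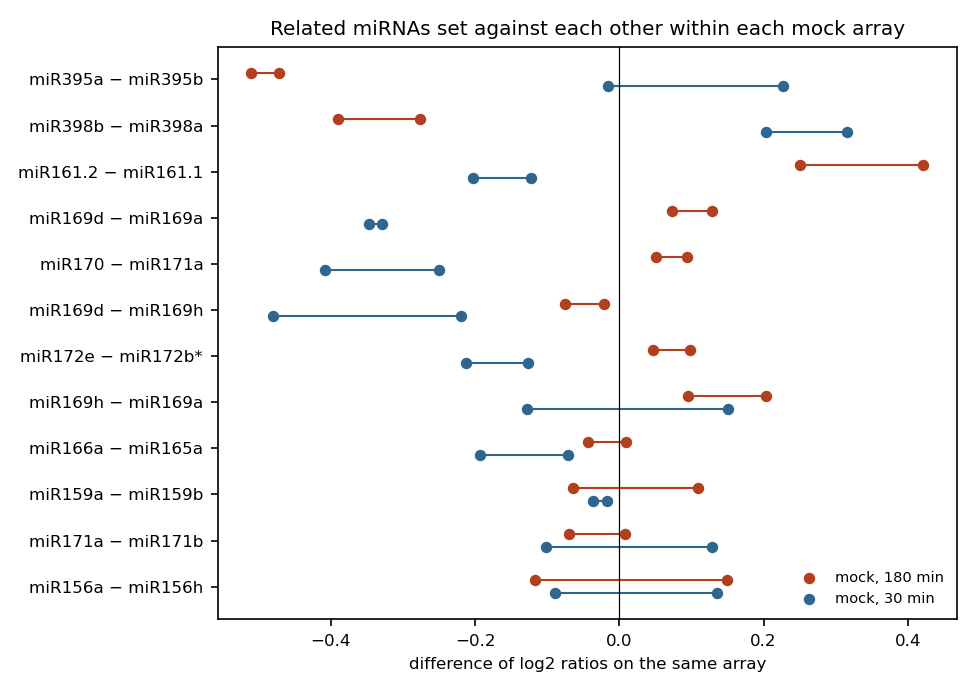
Difference of the log2 ratios of 2 related miRNAs on the same array, for the 2 mock arrays at 180 min and the 2 at 30 min (points joined by a line), ordered by the size of the change. The arrays of the groups are farthest apart for miR395a minus miR395b and for miR398b minus miR398a, and they overlap for miR156a minus miR156h.

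The change with time in mock was also compared with that in EBR-treated seedlings, which comes from 4 other arrays, by the difference of the 2 changes in the same fit. On the deposited scale 25 miRNAs rose and 3 fell in mock between 30 and 180 min, against 7 (16.3%) and 1 (2.33%) with EBR, and 3 miRNAs, miR170, miR171b and miR825, rose in both. For miR825 the EBR arrays at 30 min, at 0.502 and 0.857, were the most distant duplicates of that group. After centring 7 rose and 8 fell in mock, against 7 (16.3%) and 5 (11.6%) with EBR, so the gap in the counts of rises was present only before centring. The difference between the changes passed the adjusted threshold for 11 of the 43 miRNAs (25.6%), 7 of them (16.3%) more positive in mock and 4 (9.3%) more negative. After centring 15 (34.9%) passed, the 11 among them in the same direction. The count of 11 was 7 without EBR30 replicate 1 and 4 with each miRNA's own spread in place of the common one. MiR170 did not pass: it rose by 0.64 in mock and 0.46 with EBR on the log2 scale, and the difference of 0.18 had a standard error of 0.18 (limma, adjusted p = 0.357).

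For miR169d, miR169h and miR161.2 the mock arrays at 30 min were below all other arrays, an order not particular to them. The mock arrays at 30 min had the lowest medians of the 8, at 0.818 and 0.931. Most of the 43 tested miRNAs showed the same order. Among them were miR400, miR170, miR824 and miR173, and also miR159a and miR775, which were not called in mock. MiR169d was at 0.506 and 0.652 in mock at 30 min, while its EBR values were 1.11 and 1.03 at 180 min and 0.950 and 0.973 at 30 min. Its log2 change with EBR was 0.15, and the difference of 0.82 passed (limma, adjusted p = 5.84e-05). MiR161.2 was at 1.06 and 0.875 in EBR-treated seedlings at 180 min, against 0.996 and 1.00 at 30 min, so that mock held both its highest and its lowest arrays. MiR395a was at 1.22 and 1.06 with EBR at 180 min, against 0.988 and 1.01 at 30 min, and the mock arrays at 180 min, at 0.713 and 0.710, were below all other arrays.

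MiR397a and miR398b fell in mock and rose with EBR on the deposited scale. With EBR the ratio of miR397a was 1.22 and 1.06 at 180 min, against 0.624 and 0.635 at 30 min, a rise of 0.86 on the log2 scale (limma, adjusted p = 2.26e-09), where mock fell by 0.39. The centred changes of miR397a were -0.69 in mock and 0.73 with EBR, both called. For miR398b it was 1.15 and 0.979 with EBR at 180 min, against 0.737 and 0.777 at 30 min, a rise of 0.49 (limma, adjusted p = 0.000828), where mock fell by 0.42. After centring the change of miR398b with EBR was 0.36 and was not called (adjusted p = 0.266). MiR846 did the reverse, with 0.993 and 0.886 with EBR at 180 min, against 1.53 and 1.60 at 30 min. The log2 change was 0.65 in mock and -0.74 with EBR (limma, adjusted p = 2.47e-07 for EBR). After centring it was 0.35 in mock, not called, and -0.87 with EBR (adjusted p = 0.0159). Before centring these 3 were the miRNAs called in opposite directions in mock and with EBR.

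**Figure D5:**
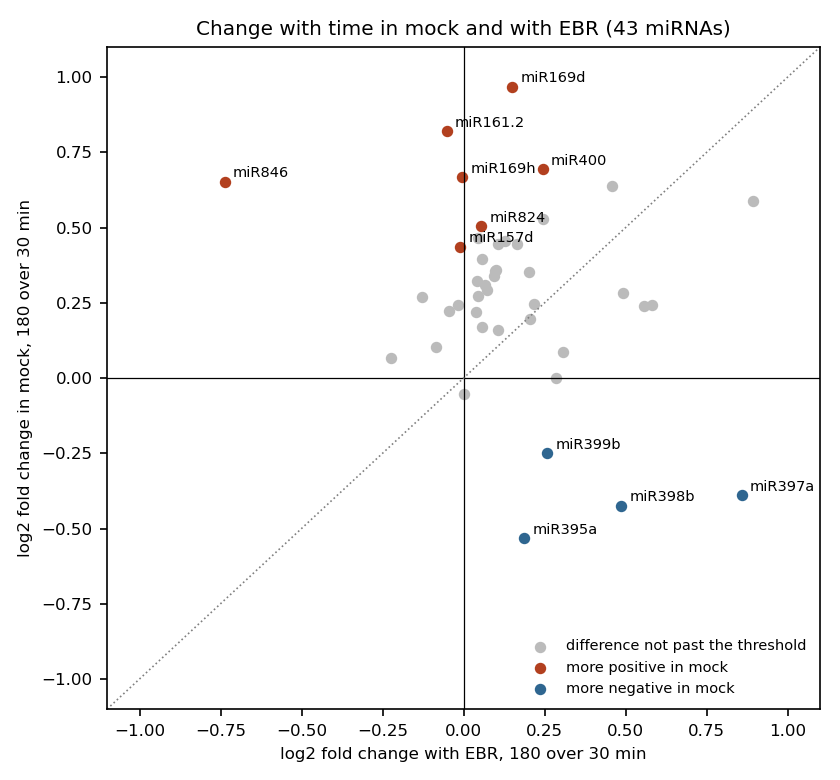
Log2 fold change at 180 over 30 min in mock (vertical) against that with EBR (horizontal) for the 43 miRNAs on the deposited scale; the dotted line marks equal change, and the 11 named miRNAs are those whose difference passed the adjusted threshold. MiR397a lies at -0.39 in mock and 0.86 with EBR, and miR846 at 0.65 in mock and -0.74 with EBR.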

How the data were processed

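miRNA profiles came from 8 single-colour Agilent arrays hybridised with 100 ng of Cyanine 3-labelled total RNA each. The values deposited by the authors are linear ratios, 1 for each miRNA on each array, made in GeneSpring by averaging probes and dividing by the miRNA's median across the samples; the submitters' processing notes name Agilent Feature Extraction 9.1. Background correction, scaling between arrays and the origin of the lowest value of 0.01 are not given in the sources used here; precision rests on 2 arrays a group.

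The log2 ratios of the 43 miRNAs above 0.01 on all arrays (median of 1 over the 8 arrays, within 1e-05) were fitted with limma 3.58.1 in R 4.3.3, with a mean for each of the 4 groups and empirical Bayes moderation. Contrasts were mock at 180 minus 30 min, EBR at 180 minus 30 min, and their difference, with Benjamini-Hochberg adjustment over the 43 and a threshold of 0.05. On the deposited scale the prior had infinite degrees of freedom and gave 1 common spread, taken as known. After centring on array medians the spread differed between miRNAs, with standard errors from 0.04 to 0.22. Calls on the 2 scales can therefore differ through the spread alone. The fit was tested on simulated data with 1 common spread and no shift between arrays, a simpler setting than that of these arrays. The alternatives were quantile normalization, centring on array means, log2 of the ratio plus 1, the replicate number as a block, the mock arrays alone, the mock arrays alone with each miRNA's own spread, a trend with a robust prior, other filters, adjustment over all deposited miRNAs and each array left out. Added after the data were seen were each miRNA's own spread in the fit to 8 arrays and centring on the 14 miRNAs with an unadjusted F-test p of 0.05 or more. The rule named every tested miRNA by family, with array values and statistics where a member passed. For some that passed, such as miR158a and miR163, the array values are not printed, and for some the adjusted p is not printed either. The comparison, role groups, pairs and tests were chosen with earlier results of these data known. Loci were matched by symbol to RefSeq names; mature sequences were not used here.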

Additional observations from a re-analysis of the deposited data

Results flagged for a closer look

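For 11 miRNAs the change between 30 and 180 min differed between mock and EBR-treated seedlings in a test of the difference itself (limma, adjusted over the 43 miRNAs). The change was more positive in mock for 7 of them. In log2 units miR846 differed by 1.39, miR169d by 0.82, miR169h by 0.67 and miR161.2 by 0.87. MiR157d, miR400 and miR824 each differed by 0.45, with an adjusted p of 0.0474 each. In the other direction the difference, mock minus EBR, was -0.51 for miR399b, -0.72 for miR395a, -0.91 for miR398b and -1.25 for miR397a. After centring of the arrays the 11 differences ran from -1.42 for miR397a to 1.21 for miR846, each with an adjusted p of at most 0.0321. The mock arrays at 30 min, which had the lowest medians of the 8 arrays, enter every one of these differences. With quantile normalization 14 differences passed, 9 of the 11 among them, and without mock replicate 1 or 2 at 30 min 8 and 13 passed. Groups of 2 arrays are too small for a search for single outlying arrays.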

How the results depend on the processing

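The 28 calls in mock at 180 against 30 min depended on the scaling. After quantile normalization 10 passed, 5 higher and 5 lower, 8 of them shared with the 28. After centring the split was 7 higher and 8 lower, and with array means 7 and 6. Centring on the 14 miRNAs with an unadjusted F-test p of 0.05 or more gave 10 and 4. Those 14 were picked from the same deposited values, and not passing that test does not show that they were unchanged. The mock arrays alone with each miRNA's own spread gave 0 calls after adjustment (14 at an unadjusted p under 0.05) on the deposited scale and 3 on the centred scale, miR172b*, miR395a and miR397a, all of them lower at 180 min (11 unadjusted). In the fit to all 8 arrays the own spread left 22 deposited and 11 centred calls. Adjustment over all deposited miRNAs left 9 of the 15 centred calls and 7 of the 11 differences between mock and EBR. That last count was 6 with the 4 miRNAs at 0.01 on some arrays included and 4 with each miRNA's own spread. With single arrays left out, the deposited calls numbered 19 (without mock replicate 1 at 30 min) to 32, the centred calls 10 to 14, the differences between mock and EBR 7 (without EBR30 replicate 1) to 13, and the difference between array medians lay between 0.21 and 0.40. The titles give the arrays a number and no known pairing. Same-numbered mock arrays deviated together only weakly (correlation of deviations 0.22 across the miRNAs, 2 pairs). This correlation cannot register a shift common to all miRNAs of an array, so it does not decide whether the arrays are paired. With the replicate block the counts were 28 on the deposited scale, 20 on the centred scale and 11 for the differences.

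For 33 miRNAs called on either scale, 493 values kept direction and side of the threshold, 133 lost the call, 6 gained one and 22 changed sign; the cause was not tested beyond the scaling itself. With centring on array medians, quantile normalization and centring on array means, in this order, the log2 fold changes turned to -0.031, -0.037 and -0.016 for miR168a, -0.035, -0.022 and -0.019 for miR822, -0.14, -0.15 and -0.13 for miR164a, -0.20, -0.15 and -0.19 for miR823 and -0.30, -0.25 and -0.29 for miR172b*. That of miR171b turned to -0.022 and -0.0066 with the medians and means, that of miR167a to -0.010 with the medians and that of miR160a to -0.028 with quantile normalization. MiR172b*, at 0.00 on the deposited scale, was also below 0 with log2 of the ratio plus 1 (-0.00049), and, with single arrays left out, lay between -0.098 and 0.099.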
